A study of Homo sapiens with 4 samples.

Results

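A group of 9 genes of the NRF2 antioxidant pathway were followed in 22RV1 and PC3 prostate cancer cells with or without DDX52 knockdown. The 9 genes are a list of names from the pathway, picked when earlier results of these data were known, and all 9 symbols mapped to 1 of the 60671 Ensembl gene identifiers each. They are the transcription factor gene NFE2L2, its inhibitor KEAP1, and the target genes NQO1, HMOX1, GCLC, GCLM, TXN, TXNRD1 and SRXN1. RNA sequencing covered 4 conditions with 1 library each: 22RV1 shCON, 22RV1 shDDX52, PC3 shCON and PC3 shDDX52. 22RV1 is an established human prostate carcinoma line, and PC3 is an established line from a bone metastasis of prostate carcinoma. All cells carried a pLKO.1 lentiviral shRNA, against DDX52, a DEAD-box RNA helicase, or with a control sequence, and were selected with puromycin. Each target had 1 shRNA sequence, so effects of the hairpin itself cannot be told apart from those of DDX52 loss.

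NRF2, the protein made from NFE2L2, is a basic leucine zipper factor that is held at low levels in unstressed cells. KEAP1 binds NRF2 and presents it to the CUL3 ubiquitin ligase for degradation, and oxidants or electrophiles that modify cysteines of KEAP1 let NRF2 build up. NRF2 then pairs with small MAF proteins and binds antioxidant response elements, which switches on genes for glutathione synthesis, the thioredoxin system, NADPH supply and quinone and heme detoxification. Most of this control acts on the NRF2 protein, which mRNA values do not measure.

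The antioxidant response element has the core TGACNNNGC, which was searched on both strands in the 250 bases upstream of each gene start in the RefSeq promoter set (build GRCh38.p14). These sequences are shown because the members differ in whether the core lies close to the start. Of the 9 members, 8 had at least 1 window, 11 windows in all, and HMOX1 was not among them. The core was found in 4 of these windows, those of KEAP1 (1 of its 2 windows), GCLM and TXNRD1 (both of its windows), against 10.9% of the 35097 windows in the set. No window of NFE2L2, NQO1, GCLC, TXN or SRXN1 held these letters, which says nothing about sites further away. No member window held TGANTCA, the related AP-1 element, found in 6.57% of the set, so no match overlapped one. Each match is a description of letters and not a measured binding site. Capitals mark the match to TGACNNNGC or to its reverse complement GCNNNGTCA, and all sequences read 5′ to 3′ on the strand of the gene. The first TXNRD1 start and GCLM are given with the whole upstream window, and the sites that lie inside the annotated gene with the bases around the match.
TXNRD1, first start, chr12:104215529-104215778, plus strand: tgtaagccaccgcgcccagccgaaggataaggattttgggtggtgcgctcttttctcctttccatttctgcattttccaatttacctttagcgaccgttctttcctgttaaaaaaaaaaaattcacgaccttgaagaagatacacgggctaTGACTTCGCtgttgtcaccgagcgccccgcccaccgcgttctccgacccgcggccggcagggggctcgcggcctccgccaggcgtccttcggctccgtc
TXNRD1, second start, chr12:104286920-104286949, plus strand: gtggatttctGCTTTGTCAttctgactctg
GCLM, chr1:93909431-93909680, minus strand: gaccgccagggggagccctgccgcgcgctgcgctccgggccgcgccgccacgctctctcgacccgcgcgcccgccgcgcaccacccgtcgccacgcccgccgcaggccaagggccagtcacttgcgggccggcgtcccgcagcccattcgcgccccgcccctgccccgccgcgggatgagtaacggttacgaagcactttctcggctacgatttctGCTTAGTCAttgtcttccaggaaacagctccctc
KEAP1, upstream match, chr19:10502806-10502835, minus strand: acttttattgTGACACGGCgggcgcccggc
KEAP1, downstream match, chr19:10502783-10502812, minus strand: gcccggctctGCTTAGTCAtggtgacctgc
The match in GCLM and the downstream match in KEAP1 have the same 9 letters, GCTTAGTCA. Both TXNRD1 starts carried a match, 99 bases before the first start and 102 bases before the second.

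Values are TPM, the length-corrected share of a library's transcripts that a gene holds, so levels can be compared between genes of a library. Between libraries, such a share also depends on what else each library holds. With 1 library per condition, no replicate spread exists, no p-value was computed, and no difference below has a replicate check. The depth of the libraries cannot be read from TPM and is unknown. A pseudocount of 1 TPM was added to both values before the log2 ratio of shDDX52 to shCON was taken. Genes that reached 1 TPM in one of the compared libraries were tested, and a gene was called changed at a 2-fold difference on this scale. The pseudocount understates the change of low genes such as GCLM. All 9 members passed the 1 TPM filter in each comparison. Where 4 values of a gene are given together, they stand in the order control 22RV1, knockdown 22RV1, control PC3 and knockdown PC3, and where 2 are given for a line, the control comes first.

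The targeted gene DDX52 was lower with shDDX52 in both lines, with 4.88 and 1.2 TPM in 22RV1 and 9.20 and 2.07 TPM in PC3, shCON first. The lines differed in their markers: CAV1, a caveolar coat gene known to be high in PC3, was 0.45 and 0.39 TPM in 22RV1 and 162 and 130 TPM in PC3, shCON first. KLK3, a prostate luminal gene, was 6.84 and 4.51 TPM in 22RV1 and listed at 0 in PC3. VIM, a mesenchymal gene, went from 12.6 to 66.7 TPM in PC3 and from 8.08 to 5.57 TPM in 22RV1. Like CAV1, VIM was listed as known to be high in PC3, but it was short of 2-fold between the control libraries. Its log2 ratio of the 22RV1 control to the PC3 control was −0.58. CD44, also listed so, was 17.1 TPM in the 22RV1 control and 571 TPM in the PC3 control. Of the markers for other cell types, PTPRC and CD3E stayed at or below 0.39 TPM, PECAM1 at or below 5.03 TPM and COL1A1 at or below 8.65 TPM, while ALB was 55.2 and 34.4 TPM in 22RV1 and at most 0.37 TPM in PC3. Of the summed TPM, rRNA genes took 1.21% and 0.0872% in 22RV1 and 0.0923% and 3.13% in PC3, shCON first. Mitochondrially encoded genes took 9.81% and 13.0% in 22RV1 and 8.1% and 10.3% in PC3, in the same order. The part of these shifts in the values below was not tested beyond the other scalings given with the results.

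The members differed in how abundant they were. NQO1, TXN and TXNRD1 together held between 67.4% and 75.8% of the summed TPM of the 9 genes, a sum of 562, 454, 691 and 704 TPM. By the mean of the 4 libraries, the order from high to low was TXN (164 TPM), NQO1 (143), TXNRD1 (127), KEAP1 (71.8), SRXN1 (52.2), HMOX1 (14.7), NFE2L2 (14.2), GCLC (11.3) and GCLM (4.34). This order did not hold in each library: NQO1 was above TXN in 22RV1 shCON (182 and 152 TPM), TXNRD1 was the highest member in PC3 shDDX52, and SRXN1 was above KEAP1 in 22RV1 shCON (56.1 and 51.6 TPM). HMOX1, NFE2L2 and GCLC, next to each other in the order, also changed places. NFE2L2 was above HMOX1 in both PC3 libraries. GCLC was above NFE2L2 in both 22RV1 libraries (11.8 and 9.97 TPM in shCON, 10.7 and 9.21 TPM in shDDX52). In PC3 shCON, GCLC was also above HMOX1 (13.1 and 11.7 TPM). TXNRD1 spanned the widest range, 4.06-fold between its lowest and highest library, and SRXN1 the narrowest, 1.22-fold.

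**Figure D1:**
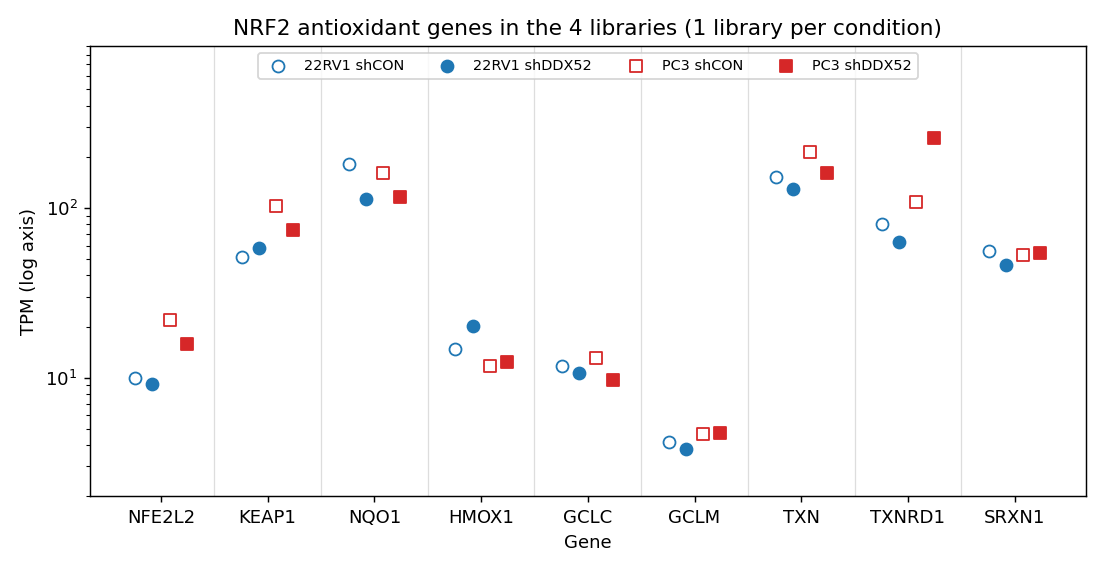
TPM (log axis) of the 9 members in each of the 4 libraries, with open symbols for shCON, filled symbols for shDDX52, blue circles for 22RV1 and red squares for PC3; each point is 1 library. TXNRD1 in PC3 shDDX52, at 257 TPM, stands above its other 3 values, which lie between 63.3 and 109 TPM.

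To see where the pathway stood before knockdown, the control libraries of the 2 lines were compared. The tables of the 2 lines were deposited separately, so levels across them rest on the authors' TPM scaling alone. The regulators were lower in 22RV1 than in PC3: NFE2L2 had 9.97 TPM in the 22RV1 control and 21.9 TPM in the PC3 control, and KEAP1 had 51.6 and 103 TPM. NFE2L2 was the 1 member past 2-fold (log2 ratio of 22RV1 to PC3 −1.06), and KEAP1 lay just short of it (−0.99). Between the lines, 2-fold lower values in 22RV1 were found for 19.9% of 15727 genes tested and 2-fold higher values for 21.3%, against 1 and 0 of the 9 members. Although both regulators differed by about the same factor, the target genes lay closer together, with log2 ratios from −0.49 for TXN to 0.32 for HMOX1. The median over the 9 members was −0.14, and over all genes tested it was 0.07.

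In 22RV1 cells, no member changed 2-fold with DDX52 knockdown, whereas in PC3 cells TXNRD1 rose and no other member passed 2-fold. In 22RV1, 5.1% of 14438 genes tested were at least 2-fold changed in either direction, and 0 of the 9 members were. In PC3, the share of 14262 genes tested that passed 2-fold was 2.86% upward and 3.44% downward, against 1 and 0 of the 9 members. The median log2 ratio of the members was −0.13 in 22RV1, where all genes tested had a median of −0.08, and −0.40 in PC3, where all genes tested had a median of −0.04. In 22RV1, 7 of the 9 members were below 0 (77.8%), as were 58.8% of all genes tested. In PC3, 5 of the 9 were below 0 (55.6%), as were 53.5% of all genes tested. The signs of the members were thus mixed in both lines, and with 1 library per condition a shared shift was not tested.

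**Figure D2:**
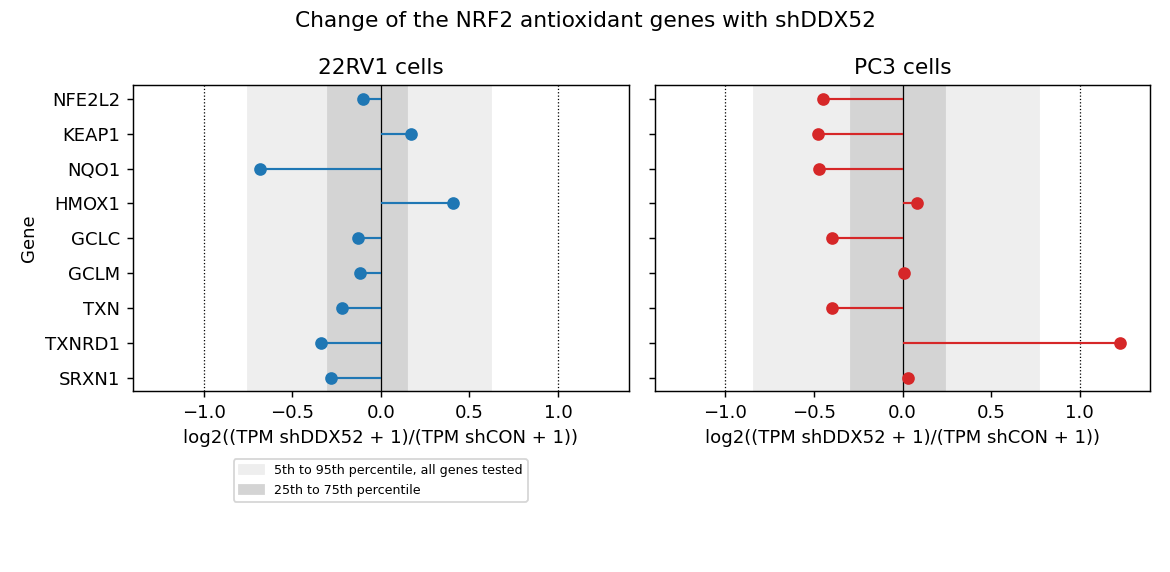
Log2 ratio of shDDX52 to shCON for the 9 members in 22RV1 (left) and PC3 (right), with grey bands for the middle ranges of all genes tested and dotted lines at a 2-fold change. TXNRD1 in PC3, at 1.23, is the only point past a dotted line, and NQO1 lies left of 0 in both panels.

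Among the regulators, NFE2L2 (ENSG00000116044, chromosome 2 from 177227595 to 177392697, minus strand, GENCODE 29 on GRCh38, as for all gene positions here) had 9.97 and 9.21 TPM in 22RV1, and 21.9 and 15.8 TPM in PC3. Its log2 ratio was −0.10 in 22RV1 and −0.45 in PC3, where 15.3% of genes tested had a lower ratio. Its gene model overlaps that of AGPS on the opposite strand, which was 5.40, 3.76, 12.0 and 16.2 TPM in the same order, and whether strand was used in counting is not given in the sources used here. KEAP1 (ENSG00000079999, chromosome 19 from 10486120 to 10503741, minus strand), the adaptor that marks NRF2 for degradation, was 51.6, 58.4, 103 and 73.8 TPM, with log2 ratios of 0.17 and −0.48. KEAP1 was thus the higher regulator by level in each library, 5.18 times NFE2L2 in 22RV1 shCON, 6.34 times in 22RV1 shDDX52, and 4.71 and 4.66 times in the PC3 libraries. In PC3, where both mRNAs were at 72.2% and 71.5% of control, this ratio differed little between shCON and shDDX52. Within 1 library such a ratio does not depend on the scaling of the library.

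NQO1 (ENSG00000181019, chromosome 16 from 69706996 to 69726951, minus strand), which reduces quinones to hydroquinones and is a standard readout of NRF2 activity, was the member with the largest difference in 22RV1. Its level in 22RV1 was 182 and 113 TPM, and in PC3 it was 161 and 116 TPM, so both knockdown libraries were below both control libraries. Its log2 ratio was −0.68 in 22RV1, where it was the only member at least 1.5-fold lower, as were 8.47% of genes tested, and −0.47 in PC3. HMOX1 (ENSG00000100292, chromosome 22 from 35380361 to 35394214, plus strand), which breaks heme down to biliverdin, iron and carbon monoxide, was 14.8, 20.04, 11.7 and 12.3 TPM. Its log2 ratio was 0.41 in 22RV1, where 9.07% of genes tested had a higher one, and 0.08 in PC3. Hence these 2 target genes lay on opposite sides of 0 in 22RV1. In PC3, NQO1 was below 0 and HMOX1 was close to 0, with 39.2% of genes tested above it. The ratio of NQO1 to HMOX1 was 12.3 and 5.63 in 22RV1 and 13.8 and 9.38 in PC3, shCON first.

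Glutathione synthesis starts with glutamate-cysteine ligase, made of the catalytic subunit GCLC and the modifier subunit GCLM. GCLC (ENSG00000001084, chromosome 6 from 53497341 to 53616970, minus strand) was 11.8, 10.7, 13.1 and 9.70 TPM, with a log2 ratio of −0.13 in 22RV1 and one of −0.40 in PC3. GCLM (ENSG00000023909, chromosome 1 from 93885205 to 93909456, minus strand) was 4.2, 3.78, 4.67 and 4.71 TPM, with log2 ratios of −0.12 and 0.01. The values of GCLM varied by no more than 1.25-fold over the 4 libraries. The ratio of GCLC to GCLM was 2.80, 2.83 and 2.81 in the first 3 libraries and 2.06 in PC3 shDDX52.

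In the thioredoxin system, TXNRD1 uses NADPH to reduce thioredoxin (TXN), and SRXN1 restores overoxidised peroxiredoxins. TXNRD1 (ENSG00000198431, chromosome 12 from 104215779 to 104350305, plus strand), a selenoprotein, was 80.2 and 63.3 TPM in the 22RV1 pair, and 109 and 257 TPM in the PC3 pair. In PC3 it rose 2.36-fold (log2 ratio 1.23), and 1.69% of genes tested had a higher ratio, whereas in 22RV1 its log2 ratio was −0.34. By level, 1332 genes were above TXNRD1 in PC3 shCON and 538 in PC3 shDDX52. The genes that overlap TXNRD1 were low: AC089983.1, on the opposite strand, was 2.33 and 3.32 TPM in PC3, and EID3, on the same strand, was at most 0.5 TPM. Both start sites of TXNRD1 printed above feed 1 gene value, and the TPM do not say which start was used.

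TXN (ENSG00000136810, chromosome 9 from 110243811 to 110256640, minus strand) was 152, 130, 214 and 161 TPM, with a log2 ratio of −0.22 in 22RV1 and one of −0.40 in PC3. The reductase and its substrate thus lay on opposite sides of 0 in PC3, and the ratio of TXN to TXNRD1, which was 1.89, 2.05 and 1.97 in the first 3 libraries, was 0.629 in PC3 shDDX52. GENCODE 29 names 7 pseudogenes of TXN, and all 7 were listed at 0 in every library. SRXN1 (ENSG00000271303, chromosome 20 from 646615 to 653370, minus strand) was 56.1, 46.0, 52.8 and 53.9 TPM, with log2 ratios of −0.28 and 0.03. TXNRD1 was 1.43 and 1.38 times SRXN1 in 22RV1, and 2.06 and 4.76 times in PC3. The mitochondrial reductase TXNRD2, from the list of other pathway genes, was 96.5, 80.7, 65.9 and 52.5 TPM, and TXNRD1 was 1.65 times TXNRD2 in PC3 shCON and 4.89 times in PC3 shDDX52. In PC3, 5 members (NFE2L2, KEAP1, NQO1, GCLC and TXN) were at 71.5% to 75.5% of control, and 3 others (GCLM, SRXN1 and HMOX1) at 101% to 106%, so TXNRD1, at 236%, stood apart from both sets.

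**Figure D3:**
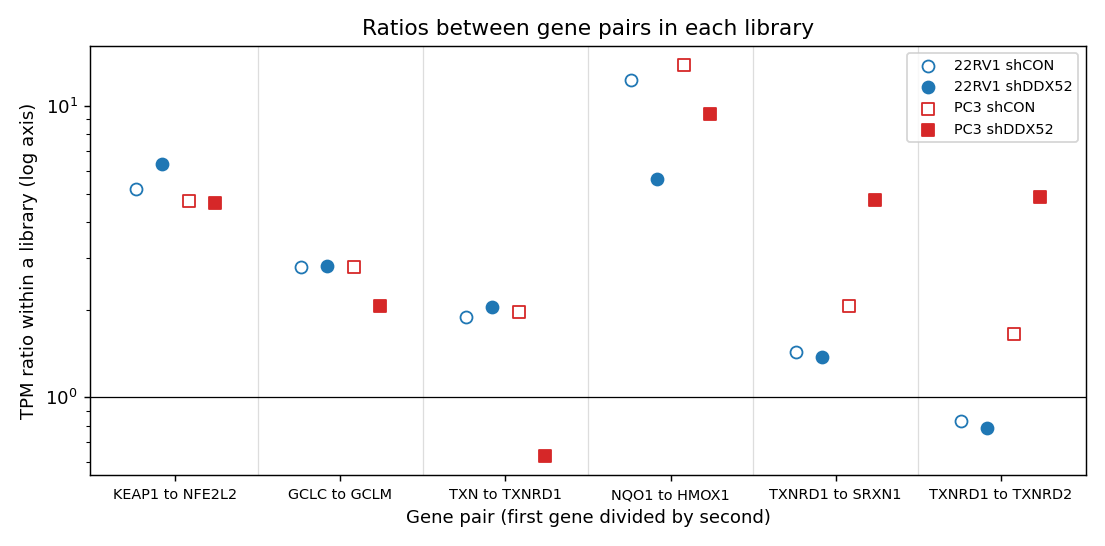
TPM of 1 gene divided by TPM of another within each library (log axis), for 6 pairs, with symbols as in the plot of TPM by gene. TXN to TXNRD1 lies between 1.89 and 2.05 in 3 libraries and at 0.629 in PC3 shDDX52, and GCLC to GCLM lies between 2.06 and 2.83.

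To place the members in the wider pathway, 68 other genes were grouped by 8 roles, and 61 of them passed the 1 TPM filter in 22RV1 and 63 in PC3. Their median log2 ratio was −0.16 in 22RV1, where 38 were below 0 (62.3%, against 58.8% of all genes tested) and 1 was at least 2-fold lower (2.86% of all genes tested were). In PC3 the median was −0.17, with 46 below 0 (73.0%, against 53.5% of all genes tested). There 5 of the 63 passed 2-fold downward (7.94%) and 0 upward, where the shares over all genes were 3.44% and 2.86%. The 0 is near the background, and whether the 5 exceed it was not tested. The gene past 2-fold in 22RV1 was GLRX, glutaredoxin, which was 5.27 and 1.99 TPM there, and 34.0 and 37.5 TPM in PC3. In PC3, FTH1, the ferritin heavy chain that stores iron, fell from 9231.5 to 4241 TPM (log2 ratio −1.12), and in 22RV1 it was 3213 and 2113 TPM (−0.60). FTH1 has 25 pseudogenes named in GENCODE 29, which together held at most 5.19 TPM in a library. The heme transporter SLC48A1 fell from 18.8 to 8.79 TPM in PC3, GPX3, a secreted glutathione peroxidase, from 7.25 to 2.96 TPM, and AKR1B10, an aldo-keto reductase and a known NRF2 target, from 13.97 to 2.61 TPM. The fifth was AKR1C1, at 1.56 and 0.05 TPM, which was under the 5 TPM required for naming and is named because its value completes the count. It passed the 1 TPM filter in PC3 only through the control library, and its values can depend on how reads shared with AKR1C2 and AKR1C3 were assigned.

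Values below 0 were the more common ones over all genes tested, at 58.8% in 22RV1 and 53.5% in PC3, and the counts by role have to be read against that. By role, the 6 NADPH supply genes were all below 0 in PC3 (median −0.30), and in 22RV1, where 5 were tested, 3 were above 0 (median 0.24). TKT, transketolase and the most abundant of them, was 878 and 1041 TPM in 22RV1 and 455 and 363 TPM in PC3. The thioredoxins and peroxiredoxins had medians of −0.17 and −0.19, with 9 of 10 below 0 in PC3. PRDX2, a peroxiredoxin kept reduced by thioredoxin, was 1390.5 and 1493 TPM in 22RV1 and 769 and 694 TPM in PC3. In the glutathione group the medians were −0.25 and −0.23, and its most abundant gene GPX4, which reduces lipid peroxides, was 2068 and 2394 TPM in 22RV1 and 952 and 688 TPM in PC3. The genes that act with or against NRF2 had a median of −0.14 in 22RV1 and of 0.07 in PC3. In this group SQSTM1, a KEAP1-binding autophagy receptor, was 151, 127, 192 and 202 TPM. The quinone and carbonyl reductases had medians of −0.17 and −0.25, and EPHX1, an epoxide hydrolase, was 314, 404, 61.7 and 59.9 TPM. Heme and iron genes had medians of 0.03 and −0.24. Conjugate exporters had medians of 0.04 and 0.19, with ABCC3 at 3.77, 1.93, 42.4 and 32.5 TPM. The superoxide and peroxide genes had medians of −0.37 and −0.12, and in PC3 SOD2 (86.1 and 85.99 TPM) and OSGIN1 (12.6 and 12.2 TPM) were nearly level. SOD1, the cytosolic superoxide dismutase, was 369, 284, 411 and 356 TPM. None of the 8 role medians reached a 2-fold change in either line.

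**Figure D4:**
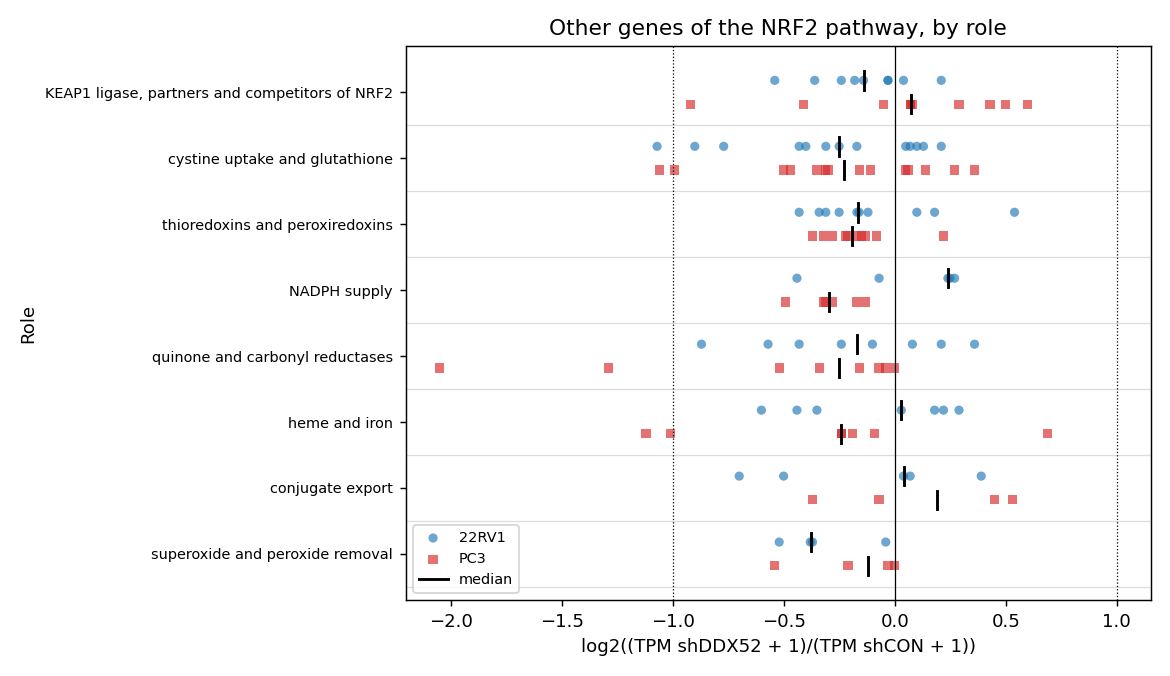
Log2 ratio of shDDX52 to shCON for the other pathway genes that passed the filter, by role, with blue circles for 22RV1, red squares for PC3, black bars for medians and dotted lines at a 2-fold change. No point lies right of the upper dotted line, 1 in 22RV1 and 5 in PC3 lie left of the lower one, and the NADPH supply medians are 0.24 in 22RV1 and −0.30 in PC3.

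The genes with the pattern most like a member were found for TXNRD1 and NFE2L2, the members with the widest range over the 4 libraries (2.0 and 1.17 on the log2(TPM + 1) scale). The measure was the Euclidean distance between log2(TPM + 1) values centred on their mean, over 10635 genes with a symbol and at least 5 TPM in a library. Closest to TXNRD1 were PLEKHA8P1 (distance 0.205), RPS6KA2 (0.243) and MOXD1 (0.244), all of low level, and RPS6KA2 was 2.73, 1.84, 4.04 and 8.65 TPM. Closest to NFE2L2 were TNS2 (0.0156), RIOX2 (0.0581) and METAP2 (0.0593). Within a distance of 0.5 lay 53 genes for TXNRD1 and 1186 for NFE2L2, so with 4 libraries a pattern like that of NFE2L2 was common.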

How the data were processed

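RNA from 22RV1 and PC3 cells with shCON or shDDX52 was sequenced as 1 library per condition. The authors deposited TPM values for 60671 Ensembl genes in 1 table per cell line, and each column matched 1 library label. The submitters' processing notes name CASAVA, HISAT2 and hg19. The quantification program, the annotation release and the handling of strand and of shared reads are not given in the sources used here. Deposited TPM summed to 987699, 990860, 990458 and 984448 in the order 22RV1 shCON, 22RV1 shDDX52, PC3 shCON and PC3 shDDX52. Depth is unknown, so values carry no interval.

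Symbols came from a table of gene names (42020 identifiers with a symbol), and 1 listed symbol, SOD2, from GENCODE 29. GENCODE 29 (GRCh38) gave gene types and positions, which are not on the build named for the files. RefSeq gave promoter sequences. Log2 ratios used a pseudocount of 1, a minimum of 1 TPM in one of the compared libraries and a 2-fold call. The calling code was run on simulated data with large changes in genes of higher level and little noise. That run checks the code only, and not calls for low genes or the spread between real libraries. Without replicates, no test was made.

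Members and lists were chosen with earlier results of these data known. Named genes were the 9 members, DDX52, KLK3, VIM, CAV1, other pathway genes with a 2-fold change and at least 5 TPM, the most abundant gene of each role, and the 3 genes most like each of 2 members. The lists of other genes were written from memory. Some genes covered by this rule are not reported here. The other markers, AGPS, AC089983.1, EID3, TXNRD2, SOD2, OSGIN1 and AKR1C1 were added after their values were seen. Alternatives covered the pseudocount, filter, scaling, centring and threshold. The work used Python 3.11.15 with matplotlib 3.10.9, pandas 2.3.3 and numpy 2.4.6.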

Additional observations from a re-analysis of the deposited data

Results flagged for a closer look

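Of the members, the other pathway genes and the line markers named by rule, 12 had log2 ratios on opposite sides of 0 in the 2 lines. Over all genes tested, 40.9% were above 0 and 58.8% below in 22RV1, and 46.3% and 53.5% in PC3. The share of all genes with opposite signs in the 2 lines was not computed, so the 12 cannot be read as a trait of these genes. With 1 library per condition, none of these differences was tested. TXNRD1 was at 1.23 in PC3 and −0.34 in 22RV1, and KEAP1 at −0.48 and 0.17. For GCLM (0.01 in PC3 and −0.12 in 22RV1) and SRXN1 (0.03 and −0.28), the PC3 value was close to 0. Among the other pathway genes, GLRX was at 0.14 in PC3 and −1.07 in 22RV1, and SLC48A1 at −1.01 and 0.29. GPX4 was at −0.47 and 0.21, TKT at −0.32 and 0.25, PRDX2 at −0.15 and 0.10, EPHX1 at −0.04 and 0.36, and SQSTM1 at 0.07 and −0.24, PC3 first. The marker VIM was at 2.31 in PC3 and −0.47 in 22RV1. The 3 genes most like TXNRD1 were picked for its pattern, opposite signs included, and are not counted here.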

How the results depend on the processing

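Each of the 9 members kept the sign of its log2 ratio in all 3 comparisons under the 4 alternatives that can change such a ratio (the pseudocount, both other scalings and the centring). The other 3, the filters and the threshold, leave it as it is by construction. A pseudocount added to both values changes the size of a ratio but never its sign. Only the scalings and the centring could therefore have changed a sign. TXNRD1 in PC3 ranged from 1.23 to 1.36 and NQO1 in 22RV1 from −0.69 to −0.61. When TPM were rescaled to nuclear protein-coding genes alone, the median of all genes tested in PC3 went from −0.04 to 0.09 and that of the members from −0.40 to −0.27, so the 5 lower members lay between −0.35 and −0.27 there. At 5 TPM in either library GCLM was left out, and the median of the members between the control libraries was −0.29. Centring on all genes raised the members past 2-fold between the control libraries from 1 to 2, since KEAP1 (−1.05) joined NFE2L2. At a 1.5-fold threshold, 1 member passed in 22RV1 (NQO1), against 0 at 2-fold, and 2 between the control libraries, against 1. No paired analysis was possible because the labels give 1 library per condition and no replicate numbers. Depth is unknown, and culture, batch and the shRNA cannot be told apart from DDX52 loss.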

Other observations

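Of the 67 other pathway genes tested between the control libraries, 13 were at least 2-fold higher in 22RV1 and 15 at least 2-fold lower, 19.4% and 22.4% of them, which is close to the 21.3% and 19.9% of all genes tested. The genes named here were chosen after their values were seen. GSTP1, a glutathione transferase known to be silenced by promoter methylation in many prostate cancers, was 0.45 and 0.37 TPM in 22RV1 and 999.6 and 927 TPM in PC3, shCON first. ME1, which supplies NADPH in the cytosol, was 0.13 TPM and listed at 0 in 22RV1, and was 15.1 and 10.5 TPM in PC3. MAFF, a small MAF partner of NRF2, was 2.72 and 2.37 TPM in 22RV1 and 30.7 and 29.5 TPM in PC3.

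Other genes were higher in 22RV1. GSR, which reduces oxidised glutathione, was 169 and 142 TPM in 22RV1 and 32.2 and 25.95 TPM in PC3. UGDH, which makes UDP-glucuronate, was 137 and 74.5 TPM in 22RV1 and 19.7 and 18.6 TPM in PC3. AKR1C2 was 84.7 and 62.8 TPM in 22RV1 and 0.44 and 0.22 TPM in PC3, but AKR1C1, AKR1C2 and AKR1C3 are close in sequence, so single values can depend on how shared reads were assigned. The cystine transporter SLC7A11 was low in all 4 libraries, at 2.19 and 1.37 TPM in 22RV1 and 0.60 and 0.75 TPM in PC3.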
